A study of Mus musculus with 10 samples.

Results

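The AP-1 transcription factors described here are 9 genes, Fos, Fosb, Fosl2, Jun, Junb, Jund, Atf3, Maff and Batf, out of 10767 genes in the table of normalized read counts of splenic CD8+ dendritic cells (DCs). They were taken by gene symbol, and all 9 symbols were found. The mRNA of CD8+ DCs (CD11c+MHCII+CD8+CD11b-) was sequenced in 5 independent sorts, each with 1 library from Ppef2+/+ and 1 from Ppef2-/- mice, and each library held the cells of 3 pooled mice. Ppef2-/- mice carry a gene trap placed after exon 4 and before exon 5 of Ppef2, which encodes a protein phosphatase with calcium-binding EF hands, and were made with JM8A3.N1 embryonic stem cells, with chimeras crossed to C57BL/6 mice. Mice of both groups were 8 to 13 weeks old, sex- and age-matched and untreated, and the gene trap is present in all cells of the animal. The comparison asked whether mRNA levels in these cells differ in the absence of Ppef2.

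AP-1 is a dimer of proteins with a basic region that binds DNA and a leucine zipper that joins both partners. Jun proteins pair with each other or with Fos proteins, Batf pairs with Jun proteins and binds composite sites together with Irf4 or Irf8, and Atf3 and Maff belong to neighbouring families with the same zipper fold. Fos, Jun and Atf3 are immediate early genes, whose transcription rises within minutes of a growth factor, danger or stress signal, and the related Batf3 is required for the development of CD8+ cDC1. The spleens had been digested for 30 min at 37 °C before the sort, and the part of this step in the levels given here was not tested.

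The sorted cells carried the transcripts of cDC1. All 15 markers of cDC1 were in the table, among them Wdfy4 at rank 13, Irf8 at rank 26 and Cd8a at rank 90 of all genes. Of 6 T cell markers only Cd4 was in the table, whereas all 6 markers of cDC2 and all 5 of plasmacytoid DCs (pDCs) were. The pDC markers summed to 1079 to 1205 normalized read counts in Ppef2+/+ and 933 to 1059 in Ppef2-/- libraries. The pDC regulator Tcf4 was lower in Ppef2-/- in 5 of 5 sorts (423 ± 19.6 and 342 ± 19.6, adjusted p of 0.018 in limma, 0.711 with the sort as a block). Siglech was lower in 5 of 5 sorts as well (157 ± 9.98 and 131 ± 9.98, adjusted p of 0.083 in limma, 0.995 with the block). The other pDC markers differed in direction, with log2 fold changes of -0.82 for Ly6d, -0.05 for Bst2 and 0.03 for Ccr9 (adjusted p of 0.417, 0.848 and 0.796 in limma). The part of pDCs in the values of the members was not tested. Fewer cells of a type and less RNA per cell cannot be told apart in these pooled cells. Ppef2 itself was at 197 ± 32.5 normalized read counts in Ppef2+/+ and 14.1 ± 17.2 in Ppef2-/- libraries (SD, n = 5), lower in 5 of 5 sorts, with a log2 fold change of -4.78 ± 0.74 (SE) and an adjusted p of 0.018 (limma). The Ppef2-/- values were 1, 3.04, 28.6, 36.7 and 1 in sorts 1 to 5, and the size of this log2 fold change depends on the floor of 1. Since the mean of each sort had been removed, the values above the floor cannot be read as remaining Ppef2 mRNA. The files hold no read totals. For the 9571 genes that could be calculated back to whole reads, the libraries summed to between 1389960 and 4388170 reads, and Ppef2-/- had 2.95 times the depth of Ppef2+/+ in sort 1 but 0.727 times in sort 5.

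In the deposited values, the mean of each sort had been removed. For 10721 of 10767 genes, the sum of the Ppef2+/+ and the Ppef2-/- value was identical in all sorts, within a tolerance of 1e-05 of it. Both genotypes therefore have the same SD for each AP-1 gene, and a library that is high in 1 genotype is matched by a low one in the other. For genes without a value at the floor of 1, the genotype means and the differences within a sort are kept by this step, whereas SDs between sorts are reduced.

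Upstream of these genes lie short DNA elements that the same family of proteins binds. The windows shown are those of an immediate early gene of each kind, Fos, Jun and Maff, and binding of any protein there was not tested. They were read from RefSeq promoters of GRCm38.p6 (250 bases before the start of the transcript were searched, on both strands), and capitals mark the matched letters.
Fos, chr12:85473808-85473844, plus strand: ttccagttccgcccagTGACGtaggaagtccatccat
Jun, chr4:95052244-95052283, minus strand: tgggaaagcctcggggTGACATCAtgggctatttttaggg
Maff, chr15:79347475-79347514, plus strand: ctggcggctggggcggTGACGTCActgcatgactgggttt
The cyclic AMP response element TGACGTCA, at which Atf and Creb proteins bind, was present in the promoter of Maff and in 1.55% of 32851 mouse promoters. Its variant TGACATCA, the site known for Jun binding to its own promoter, was found for Jun and Maff and in 2.93% of promoters. The first part of the element, TGACG, which overlaps TGACGTCA, was found in promoters of 6 members (Fos, Fosb, Junb, Atf3, Maff and Batf) and in 17.8% of all promoters. The classical AP-1 site TGANTCA was in 0 of the 11 promoters of the 9 members and in 6.75% of all promoters, which concerns only the letters of these windows. The matches start 66 bases before the transcript of Fos, 45 before that of Jun and 29 before that of Maff.

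Expression of the AP-1 genes fell into a high and a low set. Of all genes ordered by their mean over the 10 libraries, Fos ranked 19, Fosb 20, Jun 24, Atf3 57, Junb 89 and Jund 129, so that 6 of the 9 were above 98.8% of the genes in the table. Maff and Fosl2, at ranks 4598 and 4604, stood near the middle, and Batf, at rank 8260, was above 23.3% of genes. The 9 genes together took 1.24% of the summed normalized read counts in Ppef2+/+ and 1.31% in Ppef2-/- libraries. The order of ranks was nearly the same in both genotypes (19 and 19 for Fos, 20 and 18 for Fosb, 24 and 24 for Jun, 58 and 57 for Atf3, 90 and 89 for Junb, 131 and 124 for Jund).

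Longer transcripts collect more reads, so levels were compared between genes per kb of exon. On this scale Fos was highest with 7752 ± 435 normalized read counts per kb (SD, n = 10 libraries), followed by Jun with 4550 ± 568 and Atf3 with 3532 ± 216. The ranges of Jun and Atf3 over the libraries overlapped in the deposited values, which lack the differences between sorts. Fosb, Jund and Junb lay between 2496 and 2835 per kb, and neighbours in that order overlapped as well. The length used was the union of the exons of all annotated transcripts. It has 6243 bases for Fosb, whose longest transcript has 3782, whereas both lengths are 3189 for Jun. The place of Fosb below Jun and Atf3 thus depends on the length chosen. Maff (85.3 per kb), Batf (40.1) and Fosl2 (22.8) were lower. With the sort means put back (described for these 3 genes further on), they ranged from 31.1 to 148 per kb for Maff, 29.3 to 54.5 for Batf and 6.93 to 47.8 for Fosl2, so that all 3 overlapped. The order also turned between sorts, since Batf was above Maff in sort 1 (43.4 and 34.5 per kb) and Fosl2 above Batf in sorts 3 (34.3 and 33.2) and 4 (46.2 and 30.1). Fosl2, which has the longest exon sequence of the 9 with 9680 bases, ranked 6658 of 10392 genes per kb.

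The difference between genotypes was small for every AP-1 gene. None of the 9 genes passed the test (0 of 9 with an adjusted p under 0.05 in limma), compared to 0.957% of all genes tested (0.00929% when the sort was a block, where 0 of 9 passed as well). At an unadjusted p under 0.05, 1 of 9 passed in either fit, with a higher level in Ppef2-/-. Of all genes, 17.5% did so without the block (9.2% higher and 8.33% lower in Ppef2-/-) and 4.29% with it (2.3% higher and 1.99% lower). The share of 17.5% is above the 5% that unchanged genes give in a test with the right spread. Removal of the sort means reduces the spread that the fit without a block uses, so its p-values are too small. The values of Ppef2+/+ and Ppef2-/- libraries overlapped for 9 of 9 members. Among all genes, 3.26% were higher and 2.92% lower in Ppef2-/- without overlap. The same shares had 1 direction in all 5 sorts, because with a constant sum both conditions are the same. Overlap thus adds nothing to the directions within sorts. The mean was higher in Ppef2-/- for 7 members and lower for 2, with a median log2 fold change of 0.06 compared to 0.00 for all genes.

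**Figure D1:**
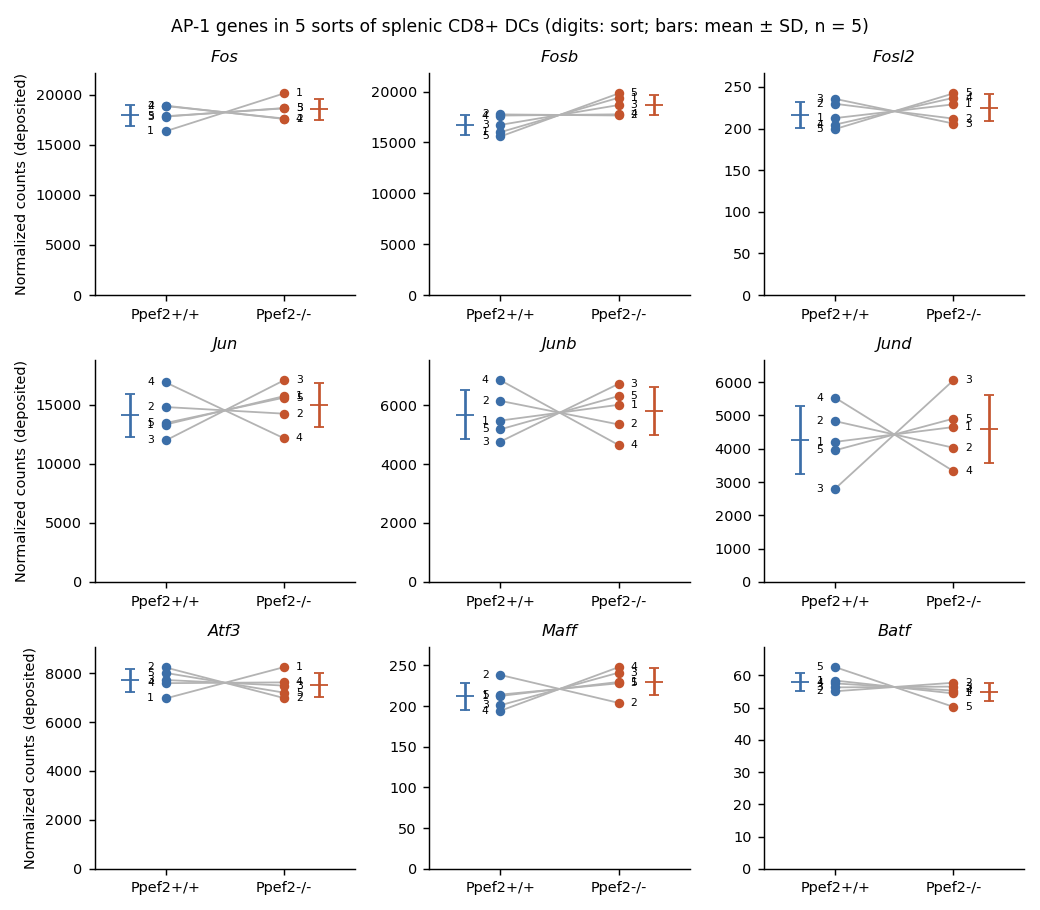
Deposited normalized read counts (y axis, from 0) of the 9 AP-1 genes in Ppef2+/+ and Ppef2-/- CD8+ DCs (x axis), with lines joining the libraries of a sort, digits for the sort, and bars for mean ± SD (n = 5). The lines cross near the middle because the sort means had been removed, and the genotypes overlap in each panel.

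Among the Fos proteins, which carry the activation domain of many AP-1 dimers and cannot pair with themselves, Fosb had the largest log2 fold change. Fosb was at 16005, 17751, 16723, 17638 and 15581 normalized read counts in the Ppef2+/+ libraries (sorts 1 to 5 in turn). In Ppef2-/- it was at 19392, 17647, 18674, 17759 and 19817. It was higher in Ppef2-/- in 4 of 5 sorts. In sorts 2 (lower) and 4 (higher) the values differed by less than the spread of either genotype. The means were 16740 ± 963 and 18658 ± 963 (SD, n = 5), an increase of 11.5%. The log2 fold change of 0.16 ± 0.04 (SE) had an adjusted p of 0.106 in limma (unadjusted p of 0.0035), and 0.995 with the sort as a block (unadjusted p of 0.011, 95% interval of the log2 fold change from 0.04 to 0.27). This interval uses an SE that limma draws towards those of genes of similar level, and is narrower than the differences of Fosb alone would give. Within sorts, Fosb differed by 1918 ± 1927 normalized read counts (mean ± SD, n = 5 sorts). The exact permutation test of 5 against 5 libraries (two-sided) gave p = 0.0159. It ignores the pairing by sort and uses values without the sort means, so this p-value is too small, as in the fit without a block. The exact sign-flip test of the differences within sorts gave p = 0.125, and 0.0625 is the smallest value that 5 sorts allow.

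Fos, the partner of Jun in the best known AP-1 dimer, was at 16346, 18854, 17808, 18894 and 17842 normalized read counts in Ppef2+/+ and at 20119, 17612, 18657, 17571 and 18624 in Ppef2-/- libraries. Its level was lower in Ppef2-/- in sorts 2 and 4. The log2 fold change was 0.05 ± 0.05 (SE; adjusted p of 0.654 in limma), and the interval in the blocked fit ran from -0.07 to 0.16. Fosl2 (Fra-2), a Fos protein with weaker activation, had 216 ± 15.7 normalized read counts in Ppef2+/+ and 225 ± 15.7 in Ppef2-/-, and was higher in Ppef2-/- in 3 of 5 sorts (log2 fold change of 0.06, adjusted p of 0.679 in limma).

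The Jun genes had the widest differences within sorts, in opposite directions. Jun was at 13307, 14789, 11963, 16873 and 13435 normalized read counts in Ppef2+/+ and at 15710, 14228, 17053, 12144 and 15582 in Ppef2-/- libraries. The lowest Ppef2+/+ and the highest Ppef2-/- library were those of sort 3, and in sort 4 the order was the opposite. Junb, a weaker activator than Jun, was at 5475, 6143, 4762, 6843 and 5179 in Ppef2+/+ and at 6011, 5343, 6724, 4643 and 6307 in Ppef2-/-. Jund, the Jun gene with the most constant expression in many tissues, was at 4207, 4829, 2801, 5532 and 3954 in Ppef2+/+ and at 4652, 4030, 6058, 3326 and 4905 in Ppef2-/-. All 3 Jun genes were thus higher in Ppef2-/- in sorts 1, 3 and 5 and lower in sorts 2 and 4.

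Averaged over sorts, these opposite differences left log2 fold changes of 0.09 ± 0.10 for Jun, 0.03 ± 0.11 for Junb and 0.11 ± 0.17 for Jund (SE), with adjusted p of 0.686, 0.912 and 0.782 (limma). The intervals in the fit with the sort as a block were -0.10 to 0.27 for Jun, -0.17 to 0.23 for Junb and -0.19 to 0.42 for Jund, so that the data allow a higher or a lower level of each in Ppef2-/-. These intervals use SEs that limma draws towards those of genes of similar level. They are narrower than the 5 differences of each Jun gene alone would give. For Jund these differences were 329 ± 2041 normalized read counts (mean ± SD, n = 5 sorts). The means of Junb and Jund changed direction without the Ppef2+/+ library of sort 3 (log2 fold changes of -0.03 and -0.03). Without both libraries of sort 3 and with the block, the log2 fold changes were -0.02 for Jun, -0.09 for Junb and -0.13 for Jund (unadjusted p of 0.824, 0.363 and 0.226 in limma). Without those of sort 4 they were 0.23, 0.18 and 0.33 (unadjusted p of 0.00098, 0.0177 and 0.0102, adjusted p of 0.527, 0.917 and 0.917 in limma). Sorts 3 and 4 held the largest differences, in opposite directions, so leaving out 1 of them moves the log2 fold change towards the other. The small unadjusted p-values without sort 4 can therefore not be read as evidence of a difference between genotypes.

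Atf3, a stress-induced factor that represses many inflammatory promoters, was at 7706 ± 482 normalized read counts in Ppef2+/+ and 7512 ± 482 in Ppef2-/- (range 6969 to 8249 over the 10 libraries). It was lower in Ppef2-/- in 3 of 5 sorts, by a log2 fold change of -0.04 ± 0.05 (SE; adjusted p of 0.748 in limma). Maff, a small Maf protein without an activation domain, had 212 ± 16.8 and 230 ± 16.8 and was higher in Ppef2-/- in 4 of 5 sorts (log2 fold change of 0.12, adjusted p of 0.371 in limma, interval with the block -0.08 to 0.31). Batf, which lacks an activation domain as well and acts with Irf4 and Irf8, had 57.9 ± 2.86 and 54.8 ± 2.86 (log2 fold change of -0.08, adjusted p of 0.627 in limma, interval with the block -0.41 to 0.25). The exact permutation p of the 9 members ranged from 0.0159 for Fosb to 0.825 for Junb, unadjusted for the number of members. The smallest value possible is 0.00794. These p-values are too small as well, because the test ignores the pairing and uses values without the sort means.

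In 4 of 5 sorts, at least 7 of the 9 members lay on 1 side of 0. They were higher in Ppef2-/- for 8 of 9 members in sort 1, 1 of 9 in sort 2, 7 of 9 in sort 3, 4 of 9 in sort 4 and 7 of 9 in sort 5. Of all genes, 49.6, 49.0, 50.2, 52.3 and 50.2% were higher in Ppef2-/- in these sorts. The median log2 difference of the members was 0.15 in sort 1, -0.12 in sort 2, 0.16 in sort 3, -0.06 in sort 4 and 0.21 in sort 5. Other immediate early genes were higher in Ppef2-/- for 14, 8, 15, 6 and 16 of 18 in sorts 1 to 5, and heat shock genes for 7, 0, 3, 5 and 0 of 8. Of 8 markers of macrophages and monocytes, 8, 2, 6, 4 and 1 were higher in Ppef2-/-, with a summed level of 1887 to 2242 normalized read counts in Ppef2+/+ and 1835 to 2191 in Ppef2-/- libraries, and all 8 were in the table. The part of these lists in the values of the members was not tested. A sort holds 1 library per genotype, and these are descriptions with no test.

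**Figure D2:**
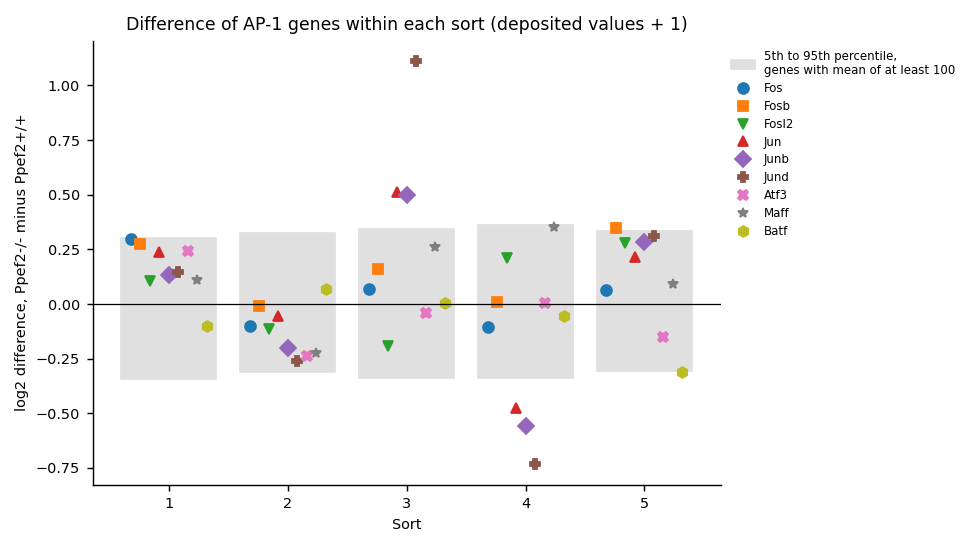
The log2 difference of deposited values + 1, Ppef2-/- minus Ppef2+/+ (y axis), of the 9 AP-1 genes in each sort (x axis), with grey boxes from the 5th to the 95th percentile of genes with a mean of at least 100. Jun, Junb and Jund lie above the box in sort 3 and below it in sort 4.

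In sort 3 the log2 difference (Ppef2-/- minus Ppef2+/+, deposited values + 1) was 0.51 for Jun, 0.50 for Junb and 1.11 for Jund, and in sort 4 it was -0.47, -0.56 and -0.73. The 5th and the 95th percentile of genes with a mean of at least 100 were -0.34 and 0.34 in sort 3 and -0.34 and 0.36 in sort 4. The root mean square of the 5 differences of Jund was larger than that of 99.4% of 309 genes of similar level, that of Junb larger than 97.6% of 207 genes and that of Jun larger than 96.3% of 53 genes. For Fos this share was 71.9% and for Batf 3.26%. At the mean level of Jund, a library of the depths found here would hold 2947 to 9538 reads, with a counting error of 1.02 to 1.84%. The reads of Jund itself were not recovered, and the part of counting error in these differences was not tested. The sort means of the 6 high genes could not be calculated back, so their log2 differences depend on the common level that the table gives to all sorts.

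Jun, Junb and Jund also have gene features in common. The longest GENCODE transcript of each (GRCm38) has 1 exon, where those of the other members have 3 or 4. The longest transcript had 67.1% G and C for Jund, 62.6% for Junb and 55.5% for Jun, which were above 99.9, 99.1 and 81.5% of all genes. Libraries of sorts 3 and 4 differed by GC content across the whole table. In the highest of 10 bins of GC content, the median log2 difference (Ppef2-/- minus Ppef2+/+) was 0.09 in sort 3 and -0.11 in sort 4, and in the lowest bin it was -0.05 and 0.10. The members were left out of the next counts, which cover genes with a mean of at least 100. For the 39 genes with at least the GC content of Junb, the medians were 0.17 and -0.19. Of these, 66.7% were higher in Ppef2-/- in sort 3 and lower in sort 4, compared to 22.9% of 6653 genes. The 327 genes with 1 exon in the longest transcript had medians of 0.02 and 0.04, and 27.8% had this pattern. The members Fosb (56.0% GC), Batf (56.6%) and Maff (57.6%) had log2 differences of 0.16, 0.01 and 0.26 in sort 3 and of 0.01, -0.06 and 0.35 in sort 4. The part of GC content in the differences of the Jun genes was not tested.

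**Figure D3:**
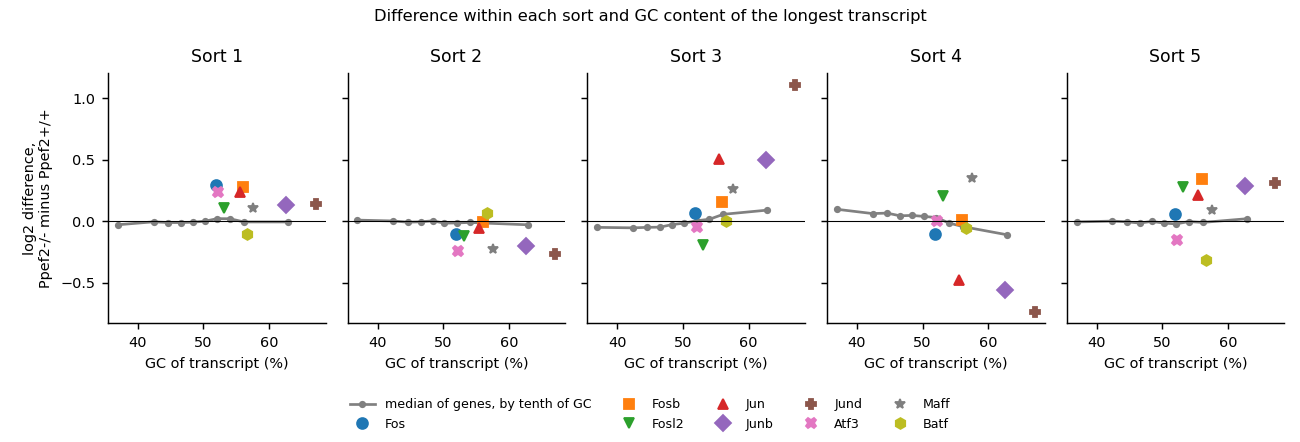
The log2 difference within each sort (y axis) against GC content of the longest transcript in percent (x axis), for the 9 AP-1 genes and, as a grey line, the median of genes with a mean of at least 100 in 10 bins of GC content. The line rises from -0.05 to 0.09 in sort 3 and falls from 0.10 to -0.11 in sort 4, and Jund, at 67.1%, is the member farthest from 0 in both.

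Reads of the Jun genes cannot be told apart from those of overlapping genes on the opposite strand, since the library kit does not mark the strand. Jund (chr8:70698949-70700616, plus strand) shares 877 of its 1668 exon bases with Gm11175. Jun (chr4:95049034-95052222, minus strand) shares 232 bases with Junos, and Junb (chr8:84974484-84978718, minus strand) shares 173 bases with Prdx2, a peroxiredoxin. Gm11175 and Junos had no row of their own in the table. The remaining 6 members overlapped no exon of another gene.

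The genes whose 5 differences were nearest to those of a member were found by the root mean square distance, among 6859 genes with a mean of at least 100 (6860 for Batf, whose own mean is lower). For Jun this was Ier5, another immediate early gene with 1 exon in its longest transcript. Its distance was 0.041 on the log2 scale (differences of 0.18, -0.10, 0.49, -0.43 and 0.19 in sorts 1 to 5). Next came Fam104a. For Junb the nearest were Csf1r, the receptor of macrophage colony stimulating factor, and Ier5. For Jund they were Scand1 and Hnrnpa0. Scand1 had 68.4% GC and differences of 1.33 in sort 3 and -0.77 in sort 4. The longest transcript of Hnrnpa0 has 1 exon. Among the members themselves, Jun and Junb were the nearest pair, at 0.094, followed by Fos and Atf3 at 0.137 and Fos and Fosb at 0.149. The nearest genes were Sesn3 and Mark2 for Fos, Inpp5f and Eml5 for Fosb, Zmym5 and AU019823 for Fosl2, Usp10 and Ebi3 for Atf3, D10Wsu102e and Hacd2 for Maff, and Kdelr1 and Usp1 for Batf.

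Fosl2, Maff and Batf could be calculated back to whole reads and to the levels that each sort had before its mean was removed. This measure was chosen after the data had been seen. Fosl2 had 49, 85, 231, 466 and 122 reads in the Ppef2+/+ libraries (sorts 1 to 5 in turn) and 180, 166, 339, 438 and 120 in Ppef2-/-. Scaled for depth, these were 67.1, 116, 347, 431 and 122 normalized read counts in Ppef2+/+ and 83.6, 98.1, 318, 463 and 164 in Ppef2-/-. Fosl2 was thus higher in sorts 3 and 4 than in the other sorts in both genotypes, and the mean of sort 4 was 5.93 times that of sort 1.

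Maff had 59, 111, 217, 357 and 173 reads in Ppef2+/+ and 211, 198, 391, 363 and 136 in Ppef2-/- libraries. Its levels were 80.8, 151, 326, 330 and 172 normalized read counts in Ppef2+/+ and 98.0, 117, 366, 384 and 186 in Ppef2-/-. It followed the same order, with sorts 3 and 4 highest in both genotypes and a ratio of 3.99 between the highest and the lowest sort mean. Batf differed from both. Its levels were 63.0, 59.98, 46.6, 43.4 and 76.7 in Ppef2+/+ and 59.0, 62.6, 46.8, 41.2 and 64.4 in Ppef2-/-, lowest in sorts 3 and 4 and with a ratio of 1.67.

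**Figure D4:**
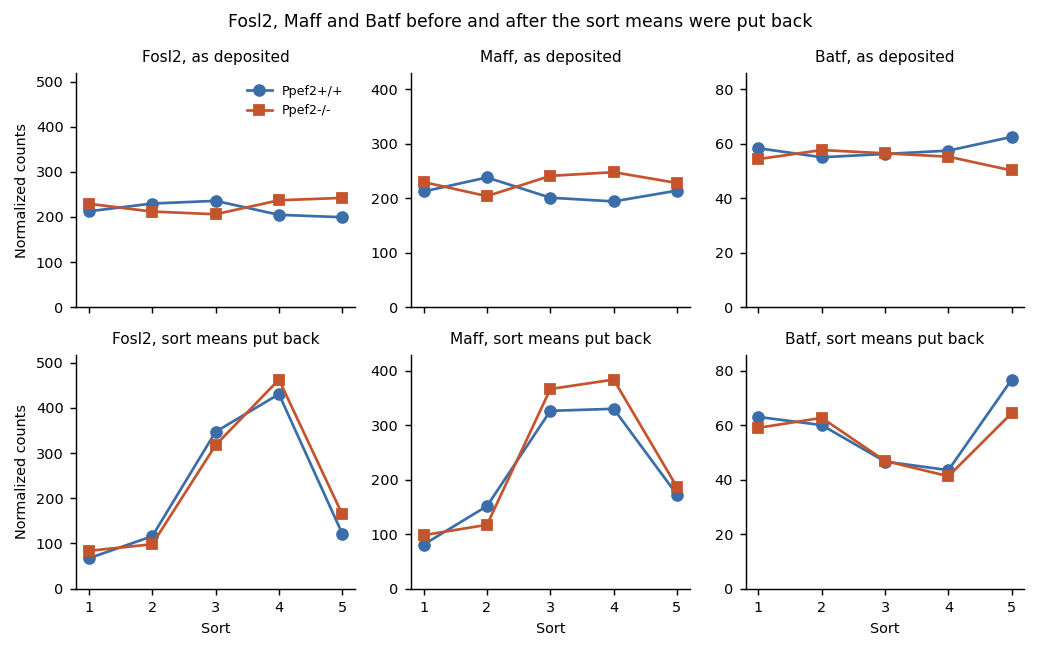
Normalized read counts (y axis, from 0) of Fosl2, Maff and Batf by sort (x axis) in Ppef2+/+ and Ppef2-/- libraries, as deposited (upper row) and with the sort means put back (lower row). Both genotypes follow each other over the sorts in the lower row, and Fosl2 ranges from 67.1 to 463.

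The spread between sorts exceeded the difference between genotypes for these 3 genes. With the sort means put back, Fosl2 was at 216 ± 162 in Ppef2+/+ and 225 ± 162 in Ppef2-/-, an SD 10.3 times that of the deposited values. The exact permutation p was 0.905 over libraries and 0.562 for the differences within sorts. For Maff the values were 212 ± 111 and 230 ± 136 (exact permutation p = 0.738, and 0.312 within sorts), and for Batf 57.9 ± 13.4 and 54.8 ± 10.2 (exact permutation p = 0.698, and 0.375 within sorts). The log2 fold change was 0.10 for Fosl2, 0.08 for Maff and -0.07 for Batf on this scale, compared to 0.06, 0.12 and -0.08 in the deposited values. Of 15 ratios of Ppef2-/- to Ppef2+/+ within a sort, 3 had an exact 95% interval without 1. These were 1.35 (1.04 to 1.76) for Fosl2 in sort 5, 0.773 (0.61 to 0.984) for Maff in sort 2 and 1.16 (1.002 to 1.35) for Maff in sort 4, and the intervals cover counting error only.

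Of 7337 genes with a mean of at least 50 that were resolved to reads, Fosl2 ranked 8 and Maff 22 by the ratio of the highest to the lowest sort mean, and Batf ranked 463. The median ratio was 1.23, 95% of genes were under 1.74, and 204 genes (2.78%) were above 2. The highest ratio, 17.4, was that of Il1r2, the decoy receptor of interleukin 1.

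**Figure D5:**
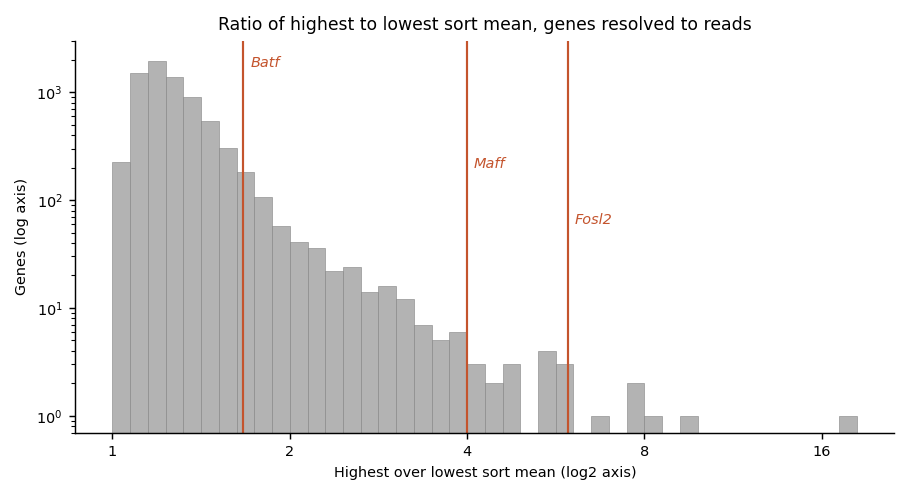
Number of genes (y axis, log scale) by the ratio of the highest to the lowest sort mean (x axis, log2 scale), for 7337 genes resolved to reads with a mean of at least 50. Vertical lines mark Batf (1.67), Maff (3.99) and Fosl2 (5.93), and the median of all genes was 1.23.

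Genes with the sort pattern nearest to that of Fosl2 were Ctla4, a receptor that binds CD80 and CD86 (distance of 0.170 on the log2 scale, ratio of 5.39), Vps37b and Nr4a2, an orphan nuclear receptor and immediate early gene. Those nearest to Maff were Ifrd1 (distance of 0.139), Nfil3, a bZIP repressor needed early in the cDC1 lineage, and Mir22hg. Among relatives with a basic region and leucine zipper, 6 of 17 ranked genes had a ratio above 2, namely Nfil3 (3.44), Bach1 (2.99), Ddit3 (2.83), Cebpa (2.40), Mafg (2.20) and Jdp2 (2.07). Sorts 3 and 4 were the highest for 11 of these 17, compared to 19.5% of all ranked genes. Irf4, the partner of Batf at composite sites, had a ratio of 2.90 with sorts 3 and 4 highest, whereas Batf3 had a ratio of 1.31. Of 19 kinases and regulators upstream of AP-1, 0 had a ratio above 2, and Mef2d had 1.49. Sorts 3 and 4 were the highest for 11 of these 19 and for 4 of 7 other immediate early genes.

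The other genes of the pathway were counted in the same fit. Of 31 relatives with a basic region and leucine zipper, 27 were in the table, and 0 passed the test in either direction (limma, adjusted p under 0.05; 2 higher and 2 lower in Ppef2-/- at an unadjusted p under 0.05, against 9.2 and 8.33% of all genes, or 1 and 0 in the fit with the block, against 2.3 and 1.99%). The highest of them were Atf4, the effector of the integrated stress response, with 1458 ± 68.5 in Ppef2+/+ and 1507 ± 68.5 in Ppef2-/-, and Atf6. Of 23 kinases and regulators that act on Jun and Fos, 22 were in the table and 0 passed (2 higher and 1 lower at an unadjusted p under 0.05, 0 with the block, beside the same shares of all genes). Mapk14 (p38α) was the highest of these with 2179 ± 61.3 and 2196 ± 61.3, followed by Itch, a ubiquitin ligase of Jun proteins, with 1162 ± 20.6 and 1144 ± 20.6. Mapk8 (JNK1), a kinase of Jun, had 279 ± 14.3 and 265 ± 14.3. Irf8 and Irf4 had log2 fold changes of -0.02 and 0.00.

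All 18 other immediate early genes of the list were in the table. In limma 2 passed with a higher level in Ppef2-/- and 0 with a lower one, compared to 0.957% of all genes in both directions. At an unadjusted p under 0.05, 7 were higher and 1 lower (9.2 and 8.33% of all genes), and with the block 6 were higher and 0 lower (2.3 and 1.99% of all genes). The median log2 fold change was 0.13. The highest of the list were Zfp36, which promotes decay of cytokine mRNAs, with 10897 ± 608 in Ppef2+/+ and 11545 ± 608 in Ppef2-/-, and Dusp1, a phosphatase of MAP kinases, with 9502 ± 502 and 9804 ± 502. Ier3, a regulator of survival downstream of NF-κB, was at 78.5 ± 4.58 in Ppef2+/+ and 110 ± 4.58 in Ppef2-/- and higher in 5 of 5 sorts (log2 fold change of 0.48, adjusted p of 0.018 in limma, 0.835 with the block). Dusp2, a phosphatase of the same family, was at 655 ± 24.8 and 737 ± 24.8 and higher in 5 of 5 sorts (0.17, adjusted p of 0.048, 0.995 with the block in limma). Neither call was kept with the sort as a block. Of 8 heat shock genes, Hspb1 passed with a lower level in Ppef2-/- (log2 fold change of -0.69, adjusted p of 0.048 in limma, 0.622 with the block). The median of this list was -0.18, and 4 of 8 were lower and 0 higher at an unadjusted p under 0.05 (8.33 and 9.2% of all genes), or 5 and 0 with the block (1.99 and 2.3%). The highest of them were Hspa1b, with 32000 ± 2532 in Ppef2+/+ and 27967 ± 2532 in Ppef2-/-, and Hspa1a, with 29473 ± 2286 and 26206 ± 2286, which are near-identical copies whose reads may be split uncertainly.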

How the data were processed

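mRNA of sorted splenic CD8+ DCs was sequenced in 10 libraries (TruSeq, 50 bp single-end), 5 per genotype, assigned to genotype and sort by their labels. The replicate number is the sort, which pairs both libraries of a sort. In the deposited values this pairing shows as a constant sum of both genotypes over the sorts in 10721 genes. According to the paper's methods, the authors aligned reads to mm10 with HISAT, whereas the submitters' processing notes name TopHat2 2.0.3; which was used for these values was not settled. Reads over RefSeq genes were counted by the authors with Partek 6.6 and normalized by DESeq2. They set values below 1 to 1 and removed genes with a larger genotype mean under 10. The deposited values are a normalized signal, not raw counts. The step that removed the sort means is not given in the sources used here. All 10 columns were used.

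Log2(value + 1) was tested with limma 3.58.1 in R 4.3.3 (eBayes with a trend, two-sided, Benjamini-Hochberg over 10767 genes), without a term for the sort, as in the one-way model of the study. By eBayes, the variance of each gene is drawn towards that of genes of similar level, and all SEs and intervals from limma use this variance. Exact permutation tests compared single genes. Levels were counted as overlapping by the range over libraries. Whole reads were recovered where a whole number of reads, multiplied by what 1 read is worth in its library and shifted by 1 offset per sort, gave the deposited values of all 10 libraries. Of 9581 genes under 1000 without a floor value, 9571 had exactly 1 such set. Intervals of ratios are exact at 95% and cover counting error only. Exon bases, overlaps and GC content came from GENCODE, promoters from RefSeq. Scripts were tested on simulated data, in which the fit without a block, once sort means had been taken out, called more unchanged genes than the fit with the block. Alternatives were other pseudocounts, a filter on low values, scalings, eBayes without a trend, the sort as a block, each library or sort left out and, added after the data were seen, the sort means put back.

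Members and lists were chosen with earlier results of these data known. Named genes are the members, Ppef2, list members past the test, the 2 highest of a pathway list and the 2 genes nearest to each member; Mapk8, Batf3, the markers of cell types and genes named for their ratio between sorts, with Prdx2, Gm11175 and Junos, were added after their values or positions were seen.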

Additional observations from a re-analysis of the deposited data

How the results depend on the processing

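Of the 9 AP-1 genes, 0 had an adjusted p under 0.05 in any alternative run. The number of genes called in the whole table was 103 and changed with the setting, to 1 with the replicate block, 193 by eBayes without a trend, 0 with the sort means put back and 1 with the sort means put back and the block (the last 2 chosen after the data were seen; in limma, 266 and 420 of 9571 genes had an unadjusted p under 0.05 there). The block changed no call of a member. With 1 library left out the count ranged from 1 to 23, and with 1 sort left out and the block from 1 to 4. With 1 library left out, the log2 fold changes of Jund ranged from -0.0278 to 0.224. Over both kinds of leave-out, log2 fold changes ranged from -0.0185 to 0.08 for Fos, 0.11 to 0.20 for Fosb, 0.00 to 0.12 for Fosl2, -0.02 to 0.23 for Jun, -0.09 to 0.18 for Junb, -0.13 to 0.33 for Jund, -0.11 to 0.01 for Atf3, 0.06 to 0.20 for Maff and -0.12 to -0.02 for Batf. With 1 library left out, the direction changed for Junb and Jund without Ppef2+/+ of sort 3 (-0.0295 and -0.0278) and for Junb without Ppef2-/- of sort 3 (-0.0248) or 5 (-0.0018). With the block, it changed without sort 1 for Fos (-0.0185), without sort 2 for Atf3 (0.0132), without sort 3 for Jun (-0.0192), Junb (-0.0854) and Jund (-0.1347), and without sort 5 for Junb (-0.0321). The cause was not tested. The 69 other values of members kept their direction, with a lowest adjusted p of 0.105 in limma. With 5 sorts, the sign-flip test within sorts cannot go below p = 0.0625 (exact). The 6 high members have no read counts or sort levels here.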
